A study of Rattus norvegicus with 15 samples.

Results

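The chemokines are small secreted proteins that draw leukocytes along a gradient, and each is read by one or a few G protein-coupled receptors on the responding cell. They are grouped by the spacing of their first cysteines into CC, CXC, CX3C and XC ligands, and the receptors carry the matching names (CCR, CXCR, CX3CR, XCR), with atypical receptors such as Ackr3 that bind a ligand and clear it. In the retina, microglia, Müller glia, the pigment epithelium and the vessels are known sources of chemokines after injury, and the ligands induced by interferon gamma (Cxcl9, Cxcl10 and Cxcl11) are known for attracting T cells that carry Cxcr3. The genes described here were taken by name from the symbol column of the deposited files: 16 CC ligands, 11 CXC, CX3C and XC ligands and 9 receptors, 36 symbols in all. Of these, 35 were found among the 20375 genes listed, and Ccr2, the receptor of Ccl2 and Ccl7, was not analysed here. The genes were taken by name and not by their values, but with earlier results of these data known.

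Messenger RNA was sequenced from the retinas of wild-type Sprague-Dawley rats labelled as postnatal week 12 and as day 31 after transplantation, with 3 libraries in each of 5 groups, 15 in all (the series text instead calls the animals 31 days old). The NT group was healthy and untreated. The sham, MSC, MSC-EPO and DPSC groups had all received sodium iodate, a toxin of the retinal pigment epithelium and photoreceptors, at 40 mg/kg. The MSC group was also injected in the vitreous with human mesenchymal stem cells from Wharton's jelly, the MSC-EPO group (labelled MSCEPO) with the same kind of cell made to express human erythropoietin and a green fluorescent protein from a lentivirus, and the DPSC group with cells that the labels name by these letters only. By the study's methods, which do not describe the DPSC group, cells were given a few days before the sodium iodate, and sham eyes were injected with the saline vehicle alone. Rats with xenografts were given dexamethasone (2 mg/kg) before surgery and cyclosporin (10 mg/kg per day) after it, and whether sham rats were given either is not stated, so that cell injection and immunosuppression cannot be told apart. Nothing in the labels says whether a library is 1 retina or a pool, and p-values measure only the spread between these libraries.

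Expression is given as regularized log (rlog) values computed by the authors, a log2 scale corrected for library size on which low values are drawn toward the mean of the gene. They are not divided by transcript length, so levels were compared between groups within a gene and never between genes. No read counts were used and the study's methods give no depth for single libraries, so the depth behind each value is not known here. A gene was tested when its mean rlog over the 15 libraries was at least 3.32, the log2 of 10. This left 15424 genes, among them 25 of the 35 chemokine genes found: 12 of 16 CC ligands, 9 of 11 CXC, CX3C and XC ligands and 4 of 8 receptors. None of the 25 had a group mean under 3.32. Ccl4 (3.33 in NT, 3.43 in sham) and Ccl22 (3.44 in NT, 3.38 in sham) lay close to it, where rlog values are strongly drawn together. A gene was called higher or lower where its Benjamini-Hochberg adjusted p over the 15424 genes (limma) was under 0.05 and its groups also differed by more than 1 log2 unit. Each gene had 1 spread estimate from all 5 groups, so the spread within MSC also enters comparisons that leave MSC out.

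The labelled tissue carried its defining markers. The 7 rod genes examined were all tested, with a mean level minus NT of -0.89 to -0.64 log2 units in the sham libraries, -1.54 to -1.40 in MSC, -1.84 to -1.49 in MSC-EPO and -1.64 to -0.82 in DPSC. Library medians lay between 8.63 and 8.82. Some libraries stood apart from others of their group: by the mean Euclidean distance to the group's other libraries over the genes listed, NT and sham lay at 29.9 to 35.3, while MSC replicate 1 lay at 73.3 and MSC-EPO replicate 3 at 91.0. MSC replicate 1 also held the highest value of all 15 libraries for 23 of the 35 chemokine genes. The same share over all genes is not given here, but within its group this library was the highest for 45.9% of all genes tested.

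Cxcl9, Cxcl10 and Cxcl11 lie side by side on chromosome 14 and share the receptor Cxcr3, and their group means were highest in the same group. Their upstream sequences are shown because these genes carry much of the difference described next. The RefSeq table of promoters (build GRCr8) held 29 of the 36 symbols. The 250 bases before each annotated start are printed 5′ to 3′ on the strand of the gene, in lower case, with capitals where a motif was matched on either strand. The motifs were the core of the interferon-stimulated response element (ISRE core: GAAA, any 2 bases, GAAA), the core of the gamma-activated site bound by STAT proteins (GAS core: TTC, any 3 bases, GAA) and the NF-κB consensus.
Cxcl9 (chr14:16006916-16007165, plus strand): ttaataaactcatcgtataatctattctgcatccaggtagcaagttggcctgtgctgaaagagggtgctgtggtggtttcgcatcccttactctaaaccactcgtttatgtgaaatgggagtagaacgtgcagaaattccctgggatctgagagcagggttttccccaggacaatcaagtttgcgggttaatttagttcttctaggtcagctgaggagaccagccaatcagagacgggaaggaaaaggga
Cxcl10 (chr14:15988816-15989065, plus strand): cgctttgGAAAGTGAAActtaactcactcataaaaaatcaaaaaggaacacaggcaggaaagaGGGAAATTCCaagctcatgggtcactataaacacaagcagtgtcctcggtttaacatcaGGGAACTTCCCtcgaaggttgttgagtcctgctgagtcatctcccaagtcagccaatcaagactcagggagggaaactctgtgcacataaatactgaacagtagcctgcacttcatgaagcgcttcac
Cxcl11 (chr14:15973478-15973727, plus strand): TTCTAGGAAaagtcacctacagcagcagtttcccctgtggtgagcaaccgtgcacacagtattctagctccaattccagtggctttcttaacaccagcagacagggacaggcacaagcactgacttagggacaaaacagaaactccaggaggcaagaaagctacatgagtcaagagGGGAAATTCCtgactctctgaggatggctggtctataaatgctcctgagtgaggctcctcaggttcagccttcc

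The Cxcl10 window held an ISRE core whose first base lay 243 bases before the start, and NF-κB matches beginning 187, 128 and 127 bases before it, of which the last overlap on opposite strands. In the Cxcl11 window there was a GAS core at 250 bases and an NF-κB match at 74 bases. These letters were not in the Cxcl9 window. Among the 33469 promoters of the same length in the table, 3.41% held the ISRE core, 7.67% the GAS core and 6.33% the NF-κB consensus. Among the 29 chemokine gene promoters, 2 held the ISRE core, 4 the GAS core and 7 the NF-κB consensus. A match is a description of letters and does not mark a site that was in use.

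In the retinas given MSC, 9 of the 25 tested chemokine genes were called higher than in NT and 0 were called lower. They were the T-cell attractants Cxcl9, Cxcl10, Cxcl11, Cxcl16 and Ccl5, the B-cell attractant Cxcl13, the monocyte attractant Ccl2, the Ccr4 ligand Ccl22 and the receptor Cxcr3. Of all genes tested, 5.71% were called higher in this comparison and 0.985% lower. Over the 25 genes the median difference from NT was 0.73 log2 units, against 0.0016 over all genes tested, and 16 of the 25 were higher in every MSC library than in every NT library, which 22.9% of all genes were. The median was 0.33 without MSC replicate 1. Then 8 were called higher, beside 3.35% of all genes, and 16 did not overlap, beside 29.5% of all genes. The retina is a mixture, so more cells of a type and more RNA per cell cannot be told apart for any of these genes.

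**Figure D1:**
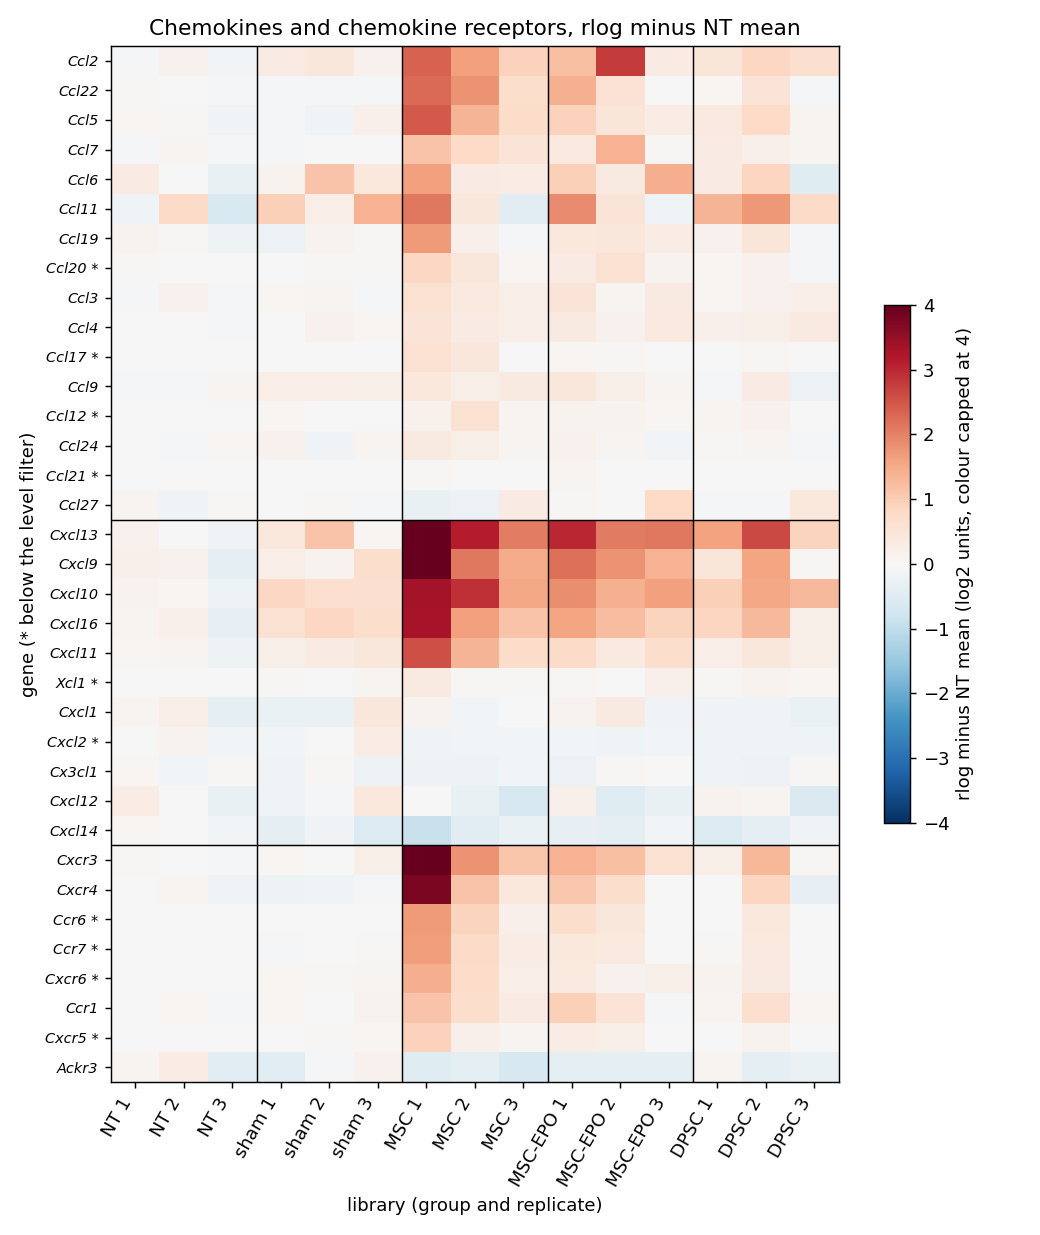
Heat map of the rlog value minus the NT mean (log2 units, colour capped at 4) for the 35 chemokine and chemokine receptor genes found (rows, CC ligands above, then CXC, CX3C and XC ligands, then receptors, each ordered by the MSC minus NT difference) in the 15 libraries (columns). An asterisk marks the 10 genes under the level filter; the darkest column is MSC replicate 1, highest of all libraries for 23 genes.

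Cxcl10, an interferon-induced ligand of Cxcr3, was the chemokine called in the most comparisons. Cxcl10 had rlog values of 5.29, 5.22 and 4.95 in the NT libraries, 5.97, 5.82 and 5.78 in sham, 8.48, 8.06 and 6.70 in MSC, 7.02, 6.56 and 6.78 in MSC-EPO and 6.11, 6.71 and 6.45 in DPSC. All NT values lay below all sham values, which in turn lay below all values of the groups given cells, and those 3 groups overlapped each other. It rose by 2.60 ± 0.34 (SE) log2 units in MSC (adjusted p = 0.000839, limma) and by 1.64 ± 0.34 in MSC-EPO (adjusted p = 0.00914, limma). In DPSC the difference from NT was 1.27 ± 0.34 with an adjusted p of 0.0684 (limma), and in sham it was 0.71 ± 0.34 with an adjusted p of 0.437 (limma). This SE is shared by all comparisons, while the SD of Cxcl10 was 0.18 in NT, 0.10 in sham, 0.30 in DPSC and 0.93 in MSC. Without MSC replicate 1 the MSC difference was 2.23 (adjusted p = 0.00262, limma).

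Cxcl9 had rlog values of 4.67, 4.64 and 4.13 in the NT libraries, 4.74, 4.61 and 5.19 in sham, 11.15, 6.57 and 5.95 in MSC, 6.68, 6.27 and 5.87 in MSC-EPO and 4.96, 6.07 and 4.52 in DPSC. Every MSC and MSC-EPO library was above every NT and sham library, and MSC replicate 1 was far above the rest, while the DPSC libraries overlapped both NT and sham. This ligand of Cxcr3, which is made chiefly in answer to interferon gamma, rose by 3.41 ± 0.98 log2 units in MSC over NT (adjusted p = 0.0308, limma). Without MSC replicate 1 the difference was 1.78, with an adjusted p of 0.0162 (limma). Without any 1 NT library the call was lost, and over its alternatives the adjusted p ran from 0.000619 to 0.0970.

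Cxcl11 had rlog values of 4.17, 4.21 and 3.90 in the NT libraries, 4.33, 4.42 and 4.54 in sham, 6.68, 5.45 and 4.82 in MSC, 4.85, 4.47 and 4.78 in MSC-EPO and 4.34, 4.54 and 4.32 in DPSC. The third Cxcr3 ligand of the cluster did not overlap between NT and any other group, and the MSC libraries were spread the widest. It rose by 1.56 ± 0.33 log2 units in MSC over NT (adjusted p = 0.00738, limma), and by 1.05 without MSC replicate 1 (adjusted p = 0.00556, limma). In MSC-EPO the difference from NT was 0.61 ± 0.33, which did not pass the test (adjusted p = 0.250, limma).

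Cxcr3 had rlog values of 3.90, 3.83 and 3.82 in the NT libraries, 3.93, 3.88 and 4.08 in sham, 9.55, 5.66 and 4.96 in MSC, 5.25, 5.05 and 4.46 in MSC-EPO and 4.09, 5.18 and 3.90 in DPSC. The receptor of these ligands, carried by activated T cells and NK cells, was near the low end of the scale in NT and sham, and in MSC and MSC-EPO every library was above both. It rose by 2.87 ± 0.85 log2 units in MSC over NT (adjusted p = 0.0343, limma). Without MSC replicate 1 the difference was 1.46 (adjusted p = 0.0186, limma), and the call was lost without any 1 NT library or with the DPSC group left out of the fit (adjusted p from 0.000428 to 0.0927 over its alternatives).

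Cxcl13 had rlog values of 7.56, 7.37 and 7.25 in the NT libraries, 7.80, 8.55 and 7.47 in sham, 13.26, 10.53 and 9.43 in MSC, 10.41, 9.48 and 9.49 in MSC-EPO and 8.99, 10.03 and 8.29 in DPSC. This ligand of Cxcr5, known for gathering B cells in lymphoid follicles, was above every NT library in all 9 libraries of the groups given cells, and among these libraries only DPSC replicate 3 reached into the sham range. It rose by 3.68 ± 0.75 log2 units in MSC over NT (adjusted p = 0.00636, limma) and by 2.58 without MSC replicate 1 (adjusted p = 0.00900, limma). In MSC-EPO the difference was 2.40 ± 0.75 (adjusted p = 0.0561, limma) and in DPSC 1.71 ± 0.75 (adjusted p = 0.268, limma), neither of which passed. Cxcr5 itself was under the level filter, with group means from 2.57 in NT to 2.98 in MSC.

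Cxcl16 had rlog values of 8.14, 8.24 and 7.69 in the NT libraries, 8.62, 8.86 and 8.74 in sham, 11.33, 9.66 and 9.15 in MSC, 9.59, 9.26 and 8.92 in MSC-EPO and 8.89, 9.33 and 8.26 in DPSC. The membrane-bound ligand of Cxcr6, which is also a scavenger receptor, was lowest in the NT libraries, which overlapped no other group. It rose by 2.02 ± 0.44 log2 units in MSC over NT (adjusted p = 0.00885, limma) and by 1.38 without MSC replicate 1 (adjusted p = 0.0131, limma). Its receptor Cxcr6, carried by T cells and NKT cells, was under the filter with group means of 2.97 in NT and 3.79 in MSC.

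**Figure D2:**
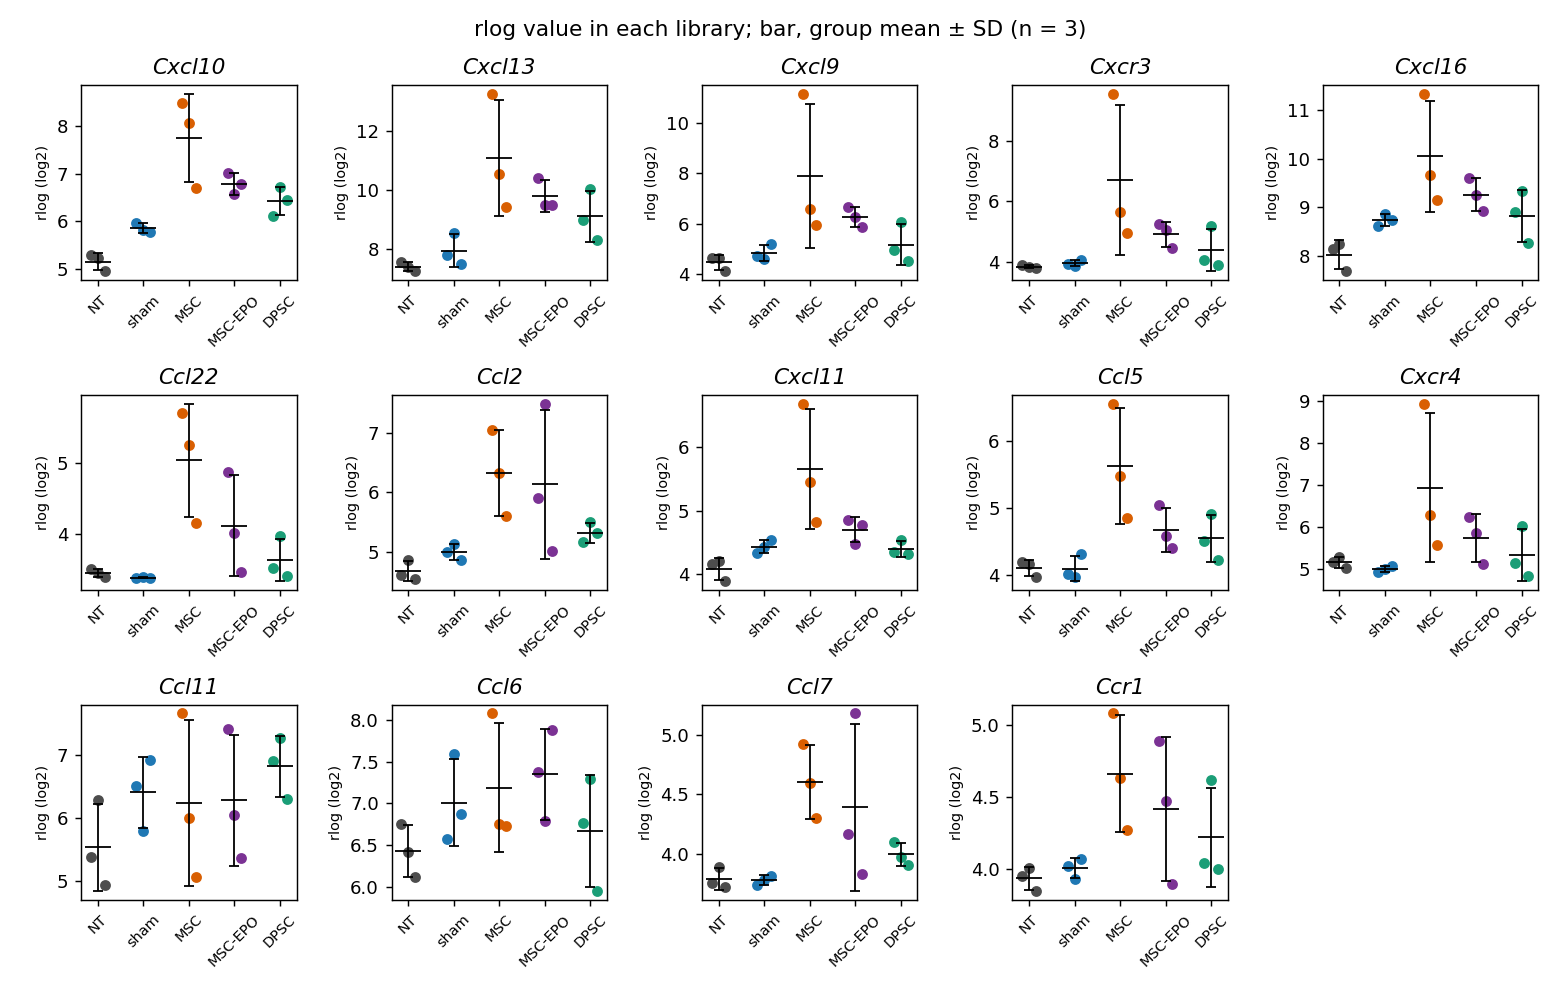
The rlog value (log2 scale, vertical axis, which does not start at 0) in each library of the 5 groups for the 14 chemokine genes with the most calls and the largest differences; points are libraries and bars are group mean ± SD (n = 3). For Cxcl9 and Cxcr3, MSC replicate 1 lies at 11.15 and 9.55, far above the other libraries.

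Ccl2 had rlog values of 4.62, 4.87 and 4.56 in the NT libraries, 5.0, 5.14 and 4.86 in sham, 7.05, 6.33 and 5.61 in MSC, 5.90, 7.49 and 5.02 in MSC-EPO and 5.16, 5.50 and 5.31 in DPSC. This monocyte attractant, the main ligand of Ccr2, was above NT in every library of the 3 groups given cells, while NT and sham overlapped, and its highest value was in MSC-EPO replicate 2. It rose by 1.65 ± 0.48 log2 units in MSC over NT (adjusted p = 0.0333, limma), but by 1.29 without MSC replicate 1, where the call was lost (adjusted p = 0.131, limma). The call was also lost without MSC replicate 2, without any 1 NT library, with the DPSC group left out of the fit and under 2 other settings (adjusted p from 0.000199 to 0.131 over its alternatives).

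Ccl5 had rlog values of 4.19, 4.15 and 3.96 in the NT libraries, 4.0, 3.96 and 4.30 in sham, 6.55, 5.47 and 4.84 in MSC, 5.03, 4.58 and 4.39 in MSC-EPO and 4.50, 4.91 and 4.22 in DPSC. This ligand of Ccr1 and other receptors, made by T cells among others, did not overlap between NT and any of the groups given cells. Its rise in MSC over NT was 1.52 log2 units (adjusted p = 0.00931, limma), and 1.06 without MSC replicate 1 (adjusted p = 0.0171, limma).

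Ccl22 had rlog values of 3.49, 3.45 and 3.38 in the NT libraries, 3.37, 3.39 and 3.37 in sham, 5.71, 5.25 and 4.15 in MSC, 4.87, 4.01 and 3.46 in MSC-EPO and 3.51, 3.97 and 3.40 in DPSC. This ligand of Ccr4, known from dendritic cells and macrophages, was narrow in NT and sham, where it lay close to the filter level. It was wide in the groups given cells, with MSC-EPO replicate 3 and DPSC replicate 3 within the NT range. It rose by 1.59 ± 0.37 log2 units in MSC over NT (adjusted p = 0.0113, limma) and by 1.26 without MSC replicate 1 (adjusted p = 0.0452, limma). Ccl17, the other ligand of Ccr4, was under the filter in every group, with its highest value, 2.28, in MSC replicate 1.

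The rest of the CC ligands differed less from NT. Ccl3 and Ccl4, attractants that macrophages and microglia make, passed the adjusted p in MSC but not the fold, with differences of 0.42 (adjusted p = 0.0285, limma) and 0.36 (adjusted p = 0.0129, limma). The same held for Ccl7, a monocyte attractant akin to Ccl2. Ccl7 had rlog values of 3.76, 3.89 and 3.72 in the NT libraries, 3.74, 3.78 and 3.82 in sham, 4.92, 4.59 and 4.30 in MSC, 4.17, 5.18 and 3.83 in MSC-EPO and 4.10, 3.98 and 3.91 in DPSC. Its MSC libraries all lay above NT and sham, its highest value was again in MSC-EPO replicate 2, and its MSC minus NT difference was 0.81 (adjusted p = 0.0475, limma). With MSC replicate 1 left out, Ccl4 still passed the adjusted p (0.29, adjusted p = 0.0463, limma), while Ccl3 (0.33, adjusted p = 0.106) and Ccl7 (0.66, adjusted p = 0.166) did not. The NT mean of Ccl4, 3.33, lay close to the filter level.

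Eotaxin, encoded by Ccl11, is a ligand of Ccr3 that draws eosinophils. Ccl11 had rlog values of 5.38, 6.29 and 4.94 in the NT libraries, 6.50, 5.80 and 6.92 in sham, 7.66, 6.0 and 5.07 in MSC, 7.42, 6.05 and 5.37 in MSC-EPO and 6.90, 7.26 and 6.30 in DPSC. The groups overlapped except DPSC, whose libraries were all above NT, and no difference passed the test: it was 1.29 ± 0.64 in DPSC over NT (adjusted p = 0.334, limma). For Ccl24, which is read by the same receptor, the group means ran from 5.89 in NT to 6.13 in MSC.

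Ccl6 and Ccl9 are rodent ligands of Ccr1. Ccl6 had rlog values of 6.76, 6.41 and 6.12 in the NT libraries, 6.57, 7.59 and 6.87 in sham, 8.08, 6.75 and 6.73 in MSC, 7.38, 6.79 and 7.88 in MSC-EPO and 6.77, 7.29 and 5.95 in DPSC. Only MSC-EPO lay wholly above NT, and the difference of 0.92 ± 0.43 did not pass (adjusted p = 0.192, limma). Ccl9 had group means between 5.63 in NT and 5.97 in MSC. Ccl19, which guides Ccr7-bearing dendritic cells and T cells, was at 4.93 ± 0.18 (SD, n = 3) in NT and 5.54 ± 0.95 in MSC, where replicate 1 held 6.62 and the other libraries 5.14 and 4.86. Ccl27, a ligand of Ccr10 known from skin, kept group means between 6.99 and 7.35.

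Among the other ligands, Cxcl14 was lower in every library of sham, MSC, MSC-EPO and DPSC than in every NT library, as were 15.3%, 21.2%, 15% and 15.7% of all genes in these comparisons. Its group mean was 10.24 ± 0.10 (SD, n = 3) in NT, 9.87 ± 0.20 in sham, 9.72 ± 0.32 in MSC, 9.98 ± 0.13 in MSC-EPO and 9.88 ± 0.20 in DPSC. The MSC difference of -0.52 passed the adjusted p (0.0403, limma) but not the fold, and without MSC replicate 1 it was -0.35 (adjusted p = 0.151, limma). Cx3cl1, or fractalkine, the membrane-bound neuronal ligand of the microglial receptor Cx3cr1, held group means from 9.47 to 9.64. Cxcl12, the ligand of Cxcr4 and Ackr3, ran from 8.39 in MSC to 8.75 in sham, and the neutrophil attractant Cxcl1 from 5.03 in DPSC to 5.34 in MSC-EPO.

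Of the receptors that passed the filter, Cxcr4 is carried by most leukocytes and binds Cxcl12. Cxcr4 had rlog values of 5.16, 5.28 and 5.04 in the NT libraries, 4.94, 5.0 and 5.08 in sham, 8.94, 6.30 and 5.59 in MSC, 6.25, 5.87 and 5.13 in MSC-EPO and 5.15, 6.02 and 4.83 in DPSC. Every MSC library was above every NT and sham library, with replicate 1 far above the others, and the difference of 1.78 ± 0.64 from NT did not pass the test (adjusted p = 0.0752, limma). The difference was 0.78 ± 0.36 without MSC replicate 1 (adjusted p = 0.191, limma), and without MSC replicate 3 it was called, at 2.46 ± 0.60 (adjusted p = 0.0145, limma). Ccr1 had rlog values of 3.95, 4.01 and 3.85 in the NT libraries, 4.02, 3.93 and 4.07 in sham, 5.08, 4.63 and 4.27 in MSC, 4.89, 4.47 and 3.89 in MSC-EPO and 4.04, 4.62 and 4.0 in DPSC. The receptor of Ccl3, Ccl5, Ccl6 and Ccl9 on myeloid cells was above NT in every MSC library, by 0.73 on average (adjusted p = 0.0615, limma). Ackr3, the atypical receptor that takes up Cxcl12, had group means of 8.80 in NT and 8.30 in MSC (adjusted p = 0.0970, limma).

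The 10 genes under the filter lay near the floor of the scale. All 5 group means were under 3.32 for Ccl12, Ccl17, Ccl21, Cxcl2, Xcl1 and Cxcr5. For Ccr7 and Cxcr6 only the MSC mean, and for Ccl20 and Ccr6 only the MSC and MSC-EPO means, reached it. Ccl21, a ligand of Ccr7 in lymph vessels, was flat, with group means from -0.13 to -0.09. Ccr6 and Ccr7, receptors of Ccl20 and of Ccl19 and Ccl21, had MSC values of 4.71, 3.92 and 3.23 and of 4.63, 3.73 and 3.27, against NT means of 3.02 and 2.97. In a fit of all genes listed, with no filter, Ccl17, Ccr7 and Cxcr6 passed the adjusted p in MSC over NT (0.0480, 0.0356 and 0.0267, limma) with differences of 0.35, 0.91 and 0.82, and none of the 10 was called in any comparison.

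**Figure D3:**
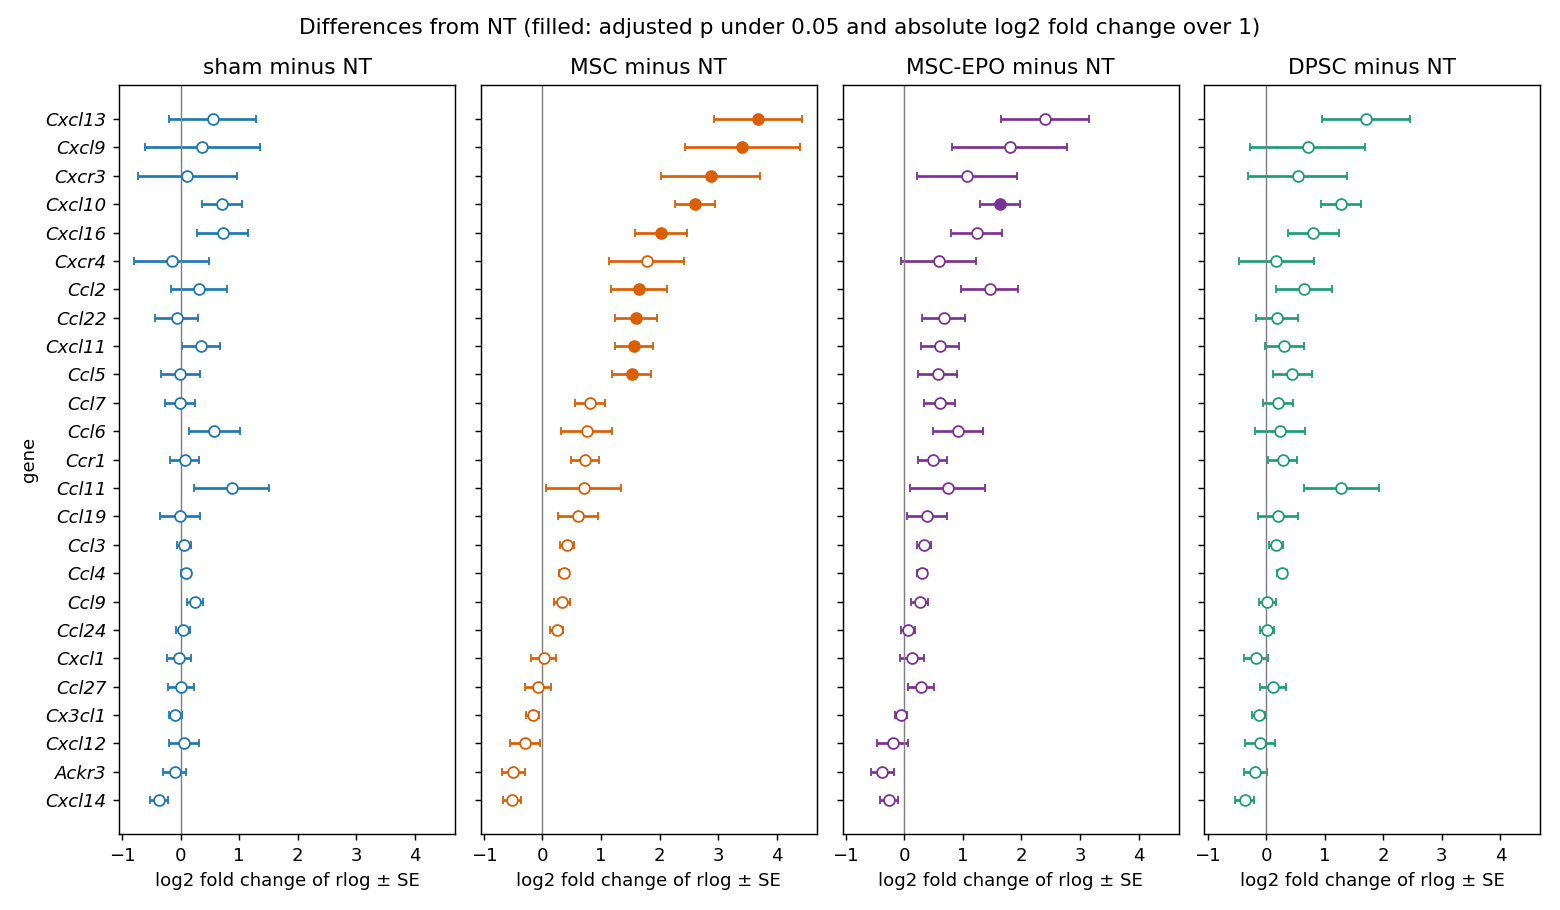
Log2 fold change of rlog from NT ± SE (horizontal axis) for the 25 chemokine genes tested (rows, ordered by the MSC difference) in sham, MSC, MSC-EPO and DPSC, from 1 fit of 15 libraries; filled points are called genes (adjusted p under 0.05, difference over 1 log2 unit). There are 9 filled points in MSC, 1 in MSC-EPO (Cxcl10) and 0 in sham and DPSC.

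Sodium iodate with an injection of vehicle was compared with healthy retina through sham and NT, and the toxin and the injection cannot be told apart. With limma, 0 of the 25 tested chemokine genes were called in either direction, when 0.266% of all genes were called higher and 0.0259% lower, and the lowest adjusted p among the 25 was 0.356. At an unadjusted p under 0.05, 0 were higher and 1, Cxcl14, was lower, beside 6.29% and 6.06% of all genes. The 5 genes whose sham libraries were all above NT were Cxcl10, Cxcl11, Cxcl16, Ccl4 and Ccl9, beside 16.6% of all genes. The median difference was 0.05. The spread behind these tests includes that of the groups given cells.

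In the MSC-EPO retinas, Cxcl10 was the 1 chemokine gene called higher than NT, and 0 were called lower, while 2.33% of all genes were called higher and 1.24% lower. Ccl4 also passed the adjusted p, with a difference of 0.31 (adjusted p = 0.0358, limma). In 11 of the 25 genes every MSC-EPO library was above every NT library, compared with 16.5% of all genes, and the median difference was 0.57. Without MSC-EPO replicate 3, Ccl2 was called as well as Cxcl10, at 2.01 (adjusted p = 0.00823, limma), beside 4.23% of all genes higher. Then 17 of the chemokine genes did not overlap, beside 30.1% of all genes, and the median was 0.65.

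In the DPSC retinas limma called 0 of the 25 genes in either direction, beside 0.525% of all genes higher and 0.259% lower. At an unadjusted p under 0.05, 3 were higher (Cxcl10, Cxcl13 and Ccl4) and 1 was lower (Cxcl14), beside 8.91% and 7.9% of all genes. In 9 genes every DPSC library was above NT, against 16% of all genes, and the median difference was 0.21. These comparisons with NT share the same NT libraries, so their values are set side by side without a test of their likeness.

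The groups given cells were compared with sham, which also had sodium iodate. In these comparisons cell injection and immunosuppression cannot be told apart. In MSC over sham, 0 of the 25 genes were called and 0% of all genes were called in either direction. The lowest adjusted p among the 25 was 0.134 (limma). The study, with DESeq2 on count data at the same adjusted p and fold cutoffs, reported many genes over- and underexpressed against sham, both in MSC and in MSC-EPO. Its calls rest on another method and were not re-examined here, so the 0 above does not show that the groups are alike. At an unadjusted p under 0.05, 14 of the 25 were higher and 0 lower, beside 9.49% and 3.82% of all genes, and the same number, 14, did not overlap, with every MSC library above sham, beside 13.1% of all genes. The differences were 1.89 for Cxcl10, 3.13 for Cxcl13, 3.04 for Cxcl9 and 2.76 for Cxcr3. They were 1.53, 2.04, 1.41 and 1.35 without MSC replicate 1 (adjusted p from 0.317 to 0.377, limma), the median over the 25 genes was 0.28 in place of 0.62, and 14 did not overlap, beside 19.7% of all genes. Without MSC replicate 3, the library of its group with the lowest value for 20 of the 25 genes, 9 were called higher: Ccl5, Ccl22, Cxcl9, Cxcl10, Cxcl11, Cxcl13, Cxcl16, Cxcr3 and Cxcr4, beside 3.38% of all genes. Their differences were then 1.63 for Cxcl11 to 4.01 for Cxcl9, with adjusted p from 0.000918 to 0.0384 (limma). With any other 1 library of these groups left out, 0 were called. When libraries were weighted by their spread the count was 0 or 8 by the method of weighting, beside 0% or 2.96% of all genes higher.

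In MSC-EPO over sham, 0 of the 25 genes were called, with 0% of all genes higher and 0.0195% lower, and the lowest adjusted p was 0.540 (limma). At an unadjusted p under 0.05, 6 were higher and 0 lower, beside 3.19% and 5.12% of all genes. In 11 genes every MSC-EPO library was above sham (7.44% of all genes). The Cxcl10 difference was 0.93 and the Cxcl13 difference 1.85.

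In DPSC over sham, 0 were called (0% and 0.013% of all genes), the lowest adjusted p was 1.00 (limma), and 0 had an unadjusted p under 0.05, beside 0.985% of all genes higher and 1.39% lower. Ccl2, Ccl4, Ccl7, Ccl22 and Cxcl10 were the 5 genes whose DPSC libraries were all above sham (4.75% of all genes). The median difference was 0.62 in MSC, 0.34 in MSC-EPO and 0.17 in DPSC over sham.

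The groups given cells were also compared with each other. In MSC over MSC-EPO, 0 of the 25 genes were called and 0% of all genes, with a lowest adjusted p of 0.754 (limma). Cxcl10, Cxcl11, Ccl5 and Ccl22 had an unadjusted p under 0.05, all higher in MSC, by 0.92 to 0.96, as did 2.83% of all genes. Only Cxcl11 did without MSC replicate 1, at 0.43. In DPSC against MSC, 0 were called (0% of all genes), the lowest adjusted p was 0.587 (limma), and 11 were lower in DPSC at an unadjusted p under 0.05, beside 5.78% of all genes. For 7 genes every DPSC library was below every MSC library, as it was for 3.68% of all genes. At the same unadjusted p, 6 were lower and 1, Ccl11, was higher without MSC replicate 1. Without MSC replicate 3, Cxcl10 was called lower in DPSC, with a difference of -1.85 (adjusted p = 0.00808, limma), where 7 of all genes were called lower. Between DPSC and MSC-EPO 0 were called (0% of all genes), 0 had an unadjusted p under 0.05 (1.58% of all genes higher, 0.901% lower), and the lowest adjusted p was 0.996 (limma). Without MSC-EPO replicate 3, Ccl2, Ccl7 and Ccl22 had an unadjusted p under 0.05, all lower in DPSC, with differences of -1.37 to -0.68. The share of all genes at an unadjusted p under 0.05 is not given for the fits with a library left out. The counts from those fits therefore have no background here, and no result about the chemokine genes is drawn from them.

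The order of the libraries within a group recurred over the chemokine genes. MSC replicate 1 was the highest of its group for 21 of the 25 tested genes, and for 45.9% of all genes tested. MSC-EPO replicate 1 was the highest of its group for 15 (34.6% of all genes) and DPSC replicate 2 the highest of its group for 16 (37.8%). MSC-EPO replicate 3 was the lowest of its group for 15, DPSC replicate 3 for 17 and MSC replicate 3 for 20. In healthy retina NT replicate 3 was likewise the lowest of its group for 20, so a recurring order was not particular to the groups given cells. The share of all genes is not given for the lowest library. Ccl2 and Ccl7 departed from the order of most of these genes in MSC-EPO, where replicate 2 held their highest values.

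Markers of immune cells moved in the same libraries. The mean level of 8 tested of 11 markers of T and NK cells lay above NT by 0.78 to 3.37 in MSC, 0.45 to 1.1 in MSC-EPO and 0.08 to 0.84 in DPSC, and between -0.0047 and 0.08 in sham. The NK marker Klrb1 was at the lowest values of the files in every group (group means -2.25). For B and plasma cells (5 tested of 7) the ranges were 1.74 to 5.10 in MSC, 0.18 to 2.28 in MSC-EPO, -0.03 to 2.12 in DPSC and -0.12 to -0.02 in sham. Macrophage and microglial markers (14 of 14) were above NT by 0.76 to 1.32 in sham, 1.51 to 3.14 in MSC, 1.38 to 2.08 in MSC-EPO and 0.84 to 1.86 in DPSC.

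Dendritic cell markers (5 tested of 6) had a mean level minus NT of 0.46 to 2.74 in MSC, 0.0034 to 1.06 in MSC-EPO, -0.0077 to 0.88 in DPSC and 0.06 to 0.14 in sham. Of these only Itgax was called in MSC over NT, and Zbtb46 went the other way, from 6.75 in NT to 6.66 in MSC. Only 1 of 7 neutrophil markers was tested, Csf3r, and it was called higher in MSC over NT, by 1.05 (adjusted p = 0.00279, limma). Its group means were 5.10 in NT, 5.68 in sham, 6.15 in MSC, 5.94 in MSC-EPO and 5.58 in DPSC. The defining Mpo and Camp had group means below 0 in every group. Endothelial markers (7 tested of 8) were above NT by 0.25 to 0.70 in MSC and 0.50 to 0.59 in sham. For this list the range was 0.39 to 0.59 in MSC-EPO and -0.04 to 0.64 in DPSC. In each of the T and NK, B and plasma, macrophage and dendritic lists the highest library was MSC replicate 1. Lens markers (6 of 6) spanned -0.54 to 5.34 in DPSC, -0.48 to 3.59 in MSC-EPO, 0.12 to 2.36 in MSC and 0.95 to 1.54 in sham. The part of these cell types in the chemokine differences was not tested.

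**Figure D4:**
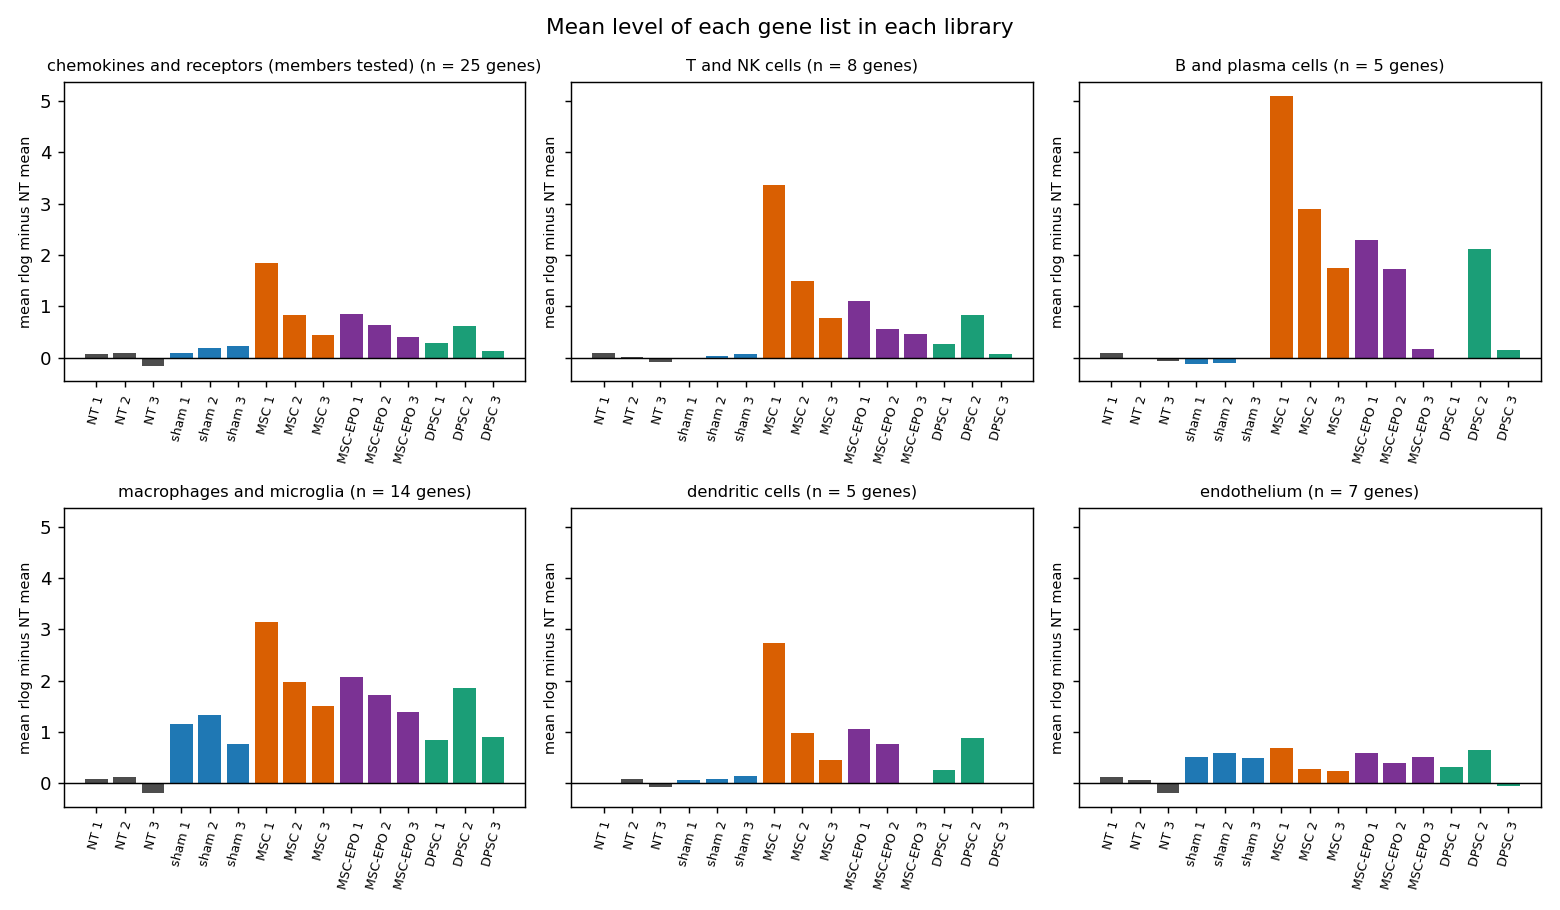
Mean rlog minus the NT mean (vertical axis, log2 units) in each of the 15 libraries for the 25 tested chemokine genes and for 5 lists of cell type markers, with the number of genes in each title. MSC replicate 1 is the highest bar in every panel, at 1.85 for the chemokine genes, 3.37 for T and NK cells and 5.10 for B and plasma cells.

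Other genes of the chemokine system were counted from hand-written lists. Of 24 further ligands and receptors, 10 were tested. In MSC over NT, where 5.71% of all genes were called higher and 0.985% lower, the genes called higher included Cx3cr1, the microglial receptor of Cx3cl1, by 1.89 ± 0.44 (adjusted p = 0.0120, limma), and Xcr1, the Xcl1 receptor of cross-presenting dendritic cells, by 1.52. When MSC replicate 1 was left out, Xcr1 was at 0.90 and was not called (adjusted p = 0.0579, limma), and Cx3cr1 was at 1.77 (adjusted p = 0.0433, limma). Ccr9, the receptor of Ccl25, fell by 1.21 ± 0.14 (adjusted p = 0.000432, limma). In MSC-EPO Ccr9 was called lower as well, and without MSC-EPO replicate 3 Cx3cr1 was called higher there, at 1.82 in place of 1.32. In DPSC Ccr9 was the 1 gene called, again lower, and in sham 0 were called.

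Of 61 genes that act behind chemokine receptors, 59 were tested. In MSC over NT 17 were higher and 1 was lower, beside 5.71% and 0.985% of all genes, led by the haematopoietic GTPase Rac2 (3.13 ± 0.54), the NADPH oxidase subunit Ncf1 (2.89 ± 0.46) and the kinase Pik3cg (2.73 ± 0.50). The counts were 14 higher and 2 lower without MSC replicate 1, beside 3.35% of all genes higher, with differences of 2.41, 2.27 and 2.26 for these genes. The kinase Jak3 was the 1 gene called in sham (1.49 ± 0.18) and the 1 called in DPSC (1.69 ± 0.18), where 0.266% and 0.525% of all genes were called higher. In MSC-EPO 11 were higher, among them Ncf1, Rac2 and Jak3 (2.24, 2.13 and 1.98), and 2 were lower, beside 2.33% and 1.24% of all genes. Without MSC-EPO replicate 3 the counts were 14 and 2, and 4.23% of all genes were called higher. Of 13 cytokines and factors that induce chemokines, 4 were tested. Ifng, Tnf, Lta, Il1a, Il6 and Il17a were under the filter, Ifng with group means from -0.58 to -0.50. In MSC over NT, where 5.71% of all genes were called higher, all 4 tested were: Irf7 by 1.74, Irf1 by 1.25, Il1b by 1.03 and Ltb by 1.01. Ltb passed the filter through the groups where it was high, with means of 3.26 in NT, 4.27 in MSC and 3.99 in MSC-EPO, so its place among the 4 is no independent support. Only Irf7 was called without MSC replicate 1, at 1.75, and Irf1, Il1b and Ltb were at 0.85, 0.52 and 0.61. In MSC-EPO Irf7 alone was called, at 1.52 above NT, joined by Ltb (1.09) without MSC-EPO replicate 3, and in sham and DPSC 0 were.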

How the data were processed

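RNA was sequenced from 15 rat retina libraries, 3 in each of 5 groups taken from the sample titles. Per the labels and the study's methods, the authors quantified reads with Salmon 1.1.0 against Rnor_6.0, brought transcripts to the gene level with tximport, and applied DESeq2's rlog; what they deposited is on a log2 scale. rlog shrinkage makes fold changes of low genes smaller than the change in reads. Reads that fit near-identical gene copies can be divided among them by Salmon, and this was not examined. A series table has 15 more columns of values per sample, under names that match no label, and these were not used.

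All 15 libraries entered 1 fit of group means in limma 3.58.1 (R 4.3.3) with a variance trend. Genes with a mean rlog of at least 3.32 were tested in 10 comparisons, with Benjamini-Hochberg adjustment over all of them in each. A call needed an adjusted p under 0.05 together with a difference of more than 1 log2 unit. The pipeline was tested on simulated data. The smallest p of an exact permutation test of 3 libraries against 3 is 0.1, so none was used. The chemokine genes, gene lists and rules were chosen with earlier results of these data known. Values in every library are printed for 14 genes, those called in the most comparisons and, among ties, with the largest absolute fold change, and full statistics for up to 8 called genes in a comparison with the largest folds. Alternatives were no filter, the adjusted p alone, 12 libraries without DPSC, a replicate block, median centring, quantile normalization, array weights and each library left out in turn. Deviations of same-numbered MSC and MSC-EPO libraries correlated at 0.26, 0.16 and 0.28, all above 0.1, so a block fit of these groups alone was added. Array weights by the gene-by-gene method were added after the counts under limma's default method had been seen. Some genes that these rules select are not reported here.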

Additional observations from a re-analysis of the deposited data

How the results depend on the processing

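The count of 9 chemokine genes called in MSC over NT ran from 6 to 10 when 1 library was left out, beside 3.35% to 7.16% of all genes called higher. Ccl5, Ccl22, Cxcl10, Cxcl11, Cxcl13 and Cxcl16 there, and Cxcl10 in MSC-EPO over NT, were called in each of the 13 alternatives run for them, and Cxcl9, Cxcr3 and Ccl2 in 10, 9 and 5 of 13. The count of 1 in MSC-EPO over NT was 2 by adjusted p alone, 2 with median centring (2.5% of all genes higher) and 1 to 2 with a library left out (1.1% to 4.23%). In MSC over sham the count of 0 ran from 0 to 9 with a library left out, beside 0% to 3.38% of all genes higher. In DPSC against MSC it ran from 0 to 1, beside 0 to 13 of all genes lower. Quantile normalization moved the median of all genes in MSC over NT to -0.10, and the count was 8, beside 4.38% of all genes higher. No fold change of a called gene turned its direction, and the cause of these changes was not tested.

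Over all groups the replicate numbers did not pair the libraries: of 30 same-numbered pairs, 12 had deviations from the group means that correlated above 0.1 (range -0.44 to 0.65). With the replicate block, 3 genes were called in MSC-EPO over NT (Ccl2, Cxcl10 and Cxcl13), and 9 in MSC over NT, beside 2.7% and 6.02% of all genes higher. The MSC and MSC-EPO groups met the mark for pairing, and in them 0 genes were called against each other with the replicate block, in the fit of all groups or of these groups alone. In the fit of these groups alone, 29 chemokine genes passed the filter, and their lowest adjusted p was 0.386 (limma). At an unadjusted p under 0.05, 7 of the 29 were higher in MSC and 0 lower, and the share of all genes at that mark is not given.

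Array weights depended on how they were estimated. By limma's default method, which stopped before it converged, 8 chemokine genes were called in MSC over NT, 7 in MSC-EPO over NT, 2 in DPSC over NT, 0 in MSC over sham, 5 in MSC-EPO over sham, 0 in DPSC against MSC and 3, all lower, in DPSC against MSC-EPO. The share of all genes called higher was 4.05%, 5.52% and 2.02% over NT, and 0% in MSC and 2.34% in MSC-EPO over sham. Of all genes, 0 were lower in DPSC against MSC and 273 against MSC-EPO. The gene-by-gene method, chosen after these counts were seen because of that stop, gave 10, 7, 3, 8, 3, 8 (all lower) and 0. Here the shares of all genes higher were 5.59%, 5.32%, 1.74%, 2.96% and 1.43% in the same order. Of all genes, 373 were lower in DPSC against MSC and 3 against MSC-EPO. Under both methods 0 chemokine genes were called in sham over NT, DPSC over sham and MSC against MSC-EPO. The other counts with sham, and those of DPSC against MSC and MSC-EPO, differed with the weights, and neither set replaces the unweighted counts. What the depth of each library limits was not assessed.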
